A study of Drosophila melanogaster with 12 samples.

Results

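Decapentaplegic (Dpp) is the BMP-type morphogen of the fly wing disc. It is secreted from a stripe of cells along the compartment boundary, binds a receptor complex that contains Thickveins (Tkv), and leads to phosphorylation of the transducer Mad, which enters the nucleus, represses the gene for the repressor Brinker and thereby frees the targets of the pathway. Levels of the pathway set growth of the disc and the position of wing veins, with spalt genes, bifid (optomotor-blind) and Daughters against dpp (Dad) expressed in nested domains around the source. ASH1 is a Trithorax group histone methyltransferase that keeps developmental genes active, and the question addressed here is how far transcripts of the Dpp pathway differ between wing discs that carry variants of it.

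The genes described are 10 named components and targets of the pathway: dpp, gbb, tkv, Mad, Dad, brk, bi, salm, salr and dally. They were chosen by name and matched by FlyBase gene identifier to the 14869 genes of the count table. Identifiers matched for 8 of the 10, and all 8 passed the filter on low counts that left 8346 genes for testing. The current identifiers of salm, the partner of salr, and of dally, a glypican co-receptor for Dpp, matched none of the identifiers in the table, and both genes were not analysed here.

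RNA was sequenced from dissected wing discs of late-stage (3rd instar) larvae raised at the same temperature, in 3 independent RNA preparations for each of 4 genotypes. ΔBAH mutAT1 larvae carried a transgene for EGFP-tagged ASH1 that lacks the BAH domain and has a mutated first AT hook, ΔBAH larvae carried the EGFP-tagged protein without the BAH domain, and ASH1 WT larvae carried the EGFP-tagged full-length protein. All of these transgenes were driven by the tubulin promoter in a w[1118]; ash1[10]/ash1[22] background, so each of the 3 lines combined the mutant ash1 alleles with ubiquitous expression, whereas wild type larvae were w[1118] with their own ash1 and no transgene. No line therefore separates the transgene from the mutant background.

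Total counts lay between 15083960 and 39180697 per library. The labels number the libraries in blocks, which were read as 3 sequencing runs. This reading is an inference. Run 3 held 6 libraries, run 2 held 4 and run 1 held 2, and the depth was 15083960 to 17828101 counts in run 3, 27871145 to 36837815 in run 2 and 35277608 to 39180697 in run 1. ΔBAH and ASH1 WT each had replicate 1 in run 2 and the other 2 in run 3, while ΔBAH mutAT1 and wild type each had 1 library per run. The summed level of the 5 matched wing disc markers of a list of 6 (nub, vg, sd, ap and pdm2) was 1129.0 to 1705.0 CPM (read counts scaled to the effective library size) in ΔBAH mutAT1, 1010.2 to 1825.4 in ΔBAH, 1018.6 to 1862.3 in ASH1 WT and 1413.1 to 1883.3 in wild type. The 6 fat body markers summed to 13.6 to 254.9 CPM in the transgenic libraries and 15.0 to 2818.9 CPM in wild type, the highest being wild type replicate 1. The targeted gene ash1 was at 154.5 to 534.3 CPM in the 9 transgenic libraries and 85.6 to 112.2 CPM in wild type, with no overlap.

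The table gave ample counts for each of the 8 genes, with no library under 1961 counts for any of them. On a scale per length of exon (RPKM, from the exon lengths of the BDGP6 annotation), the type I receptor gene tkv had the highest level, 143.9 ± 26.4 RPKM (SD over 12 libraries), followed by gbb, another BMP-type ligand, at 132.8 ± 33.0. Dad, the inhibitory Smad, was at 47.7 ± 12.4, the repressor gene brk at 42.5 ± 6.79 and the transducer gene Mad at 39.1 ± 5.61. The transcription factor genes salr and bi were at 36.5 ± 9.78 and 29.0 ± 11.2 RPKM, and dpp had the lowest level, 22.0 ± 4.63. In this order only the step between gbb and Dad was larger than the SD of both neighbours. Of the exon bases of tkv, 4.78% also lie in exons of CR14033 or TpnC25D on the opposite strand, and since the strand setting of the counting is not given in the sources used here, reads there cannot be assigned. The other 7 genes share no exon bases with annotated genes. In BDGP6, salr lies on chromosome arm 2L from 11358873 to 11373636, bi on X from 4412856 to 4485647, dpp on 2L from 2428372 to 2459823 and brk on X from 7307939 to 7311132, all on the plus strand. The counts themselves were made on the older dm3 build.

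None of the 8 genes differed between genotypes beyond the spread of the libraries when genotype alone was fitted. In the comparison of the mean of the transgenic lines with wild type, 0 of 8 had an adjusted p below 0.05, where 3.15% of all tested genes did. The same count was 0 of 8 for ΔBAH mutAT1, ΔBAH and ASH1 WT each compared with wild type, beside 2.17%, 1.93% and 1.92% of all genes. It was 0 of 8 also for ΔBAH mutAT1 compared with ΔBAH and with ASH1 WT (0.0479% of all genes in each) and for ΔBAH compared with ASH1 WT (0% of all genes, 103 genes at an unadjusted p below 0.05, 5 genes called by DESeq2 and 2 by limma-voom). No member reached an unadjusted p below 0.05 in any of these 7 comparisons by edgeR, DESeq2 or limma-voom. The same edgeR fit called the targeted gene ash1 in ASH1 WT over wild type (4.15-fold, adjusted p 0.0423). It did not call ash1 in ΔBAH (3.34-fold, adjusted p 0.0867) or ΔBAH mutAT1 (3.17-fold, adjusted p 0.103) over wild type. The libraries of the groups compared overlapped for every one of the 8 genes in all 6 pairs of genotypes. Over all tested genes, groups without overlap made up 14.0%, 13.6% and 13.6% for ΔBAH mutAT1, ΔBAH and ASH1 WT against wild type, 4.95% and 6.15% for ΔBAH mutAT1 against ΔBAH and ASH1 WT, and 4.09% for ΔBAH against ASH1 WT. The median log2 fold change of the 8 genes in the mean of the lines over wild type was -0.02, beside -0.00 over all tested genes.

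The ligand gene dpp was at 94.3, 99.9 and 117 CPM in ΔBAH mutAT1 replicates 1, 2 and 3, at 91.0, 130.4 and 134.5 in ΔBAH, at 78.3, 163 and 132.9 in ASH1 WT and at 98.0, 105 and 129.4 in wild type. Each genotype had its higher values in run 3, and the spread within ASH1 WT alone spanned all other libraries. The log2 fold change of the mean of the lines over wild type was 0.06 (SE 0.21, adjusted p 1). The other ligand gene, gbb, which is expressed broadly in the disc, was at 232.5, 345.4 and 182.8 CPM in ΔBAH mutAT1, at 254.5, 173.3 and 182.4 in ΔBAH, at 288.8, 159.8 and 186.3 in ASH1 WT and at 195.8, 266.5 and 218.7 in wild type. Here the highest library of each genotype was the one in run 2. The largest fold change of gbb among the genotype comparisons was ΔBAH mutAT1 over ΔBAH, 0.32 on the log2 scale (SE 0.29, adjusted p 1), with a 95% interval that covered -0.31 to 0.95.

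The receptor gene tkv was at 517.1, 635.7 and 635.4 CPM in ΔBAH mutAT1, at 457.3, 711.9 and 678.2 in ΔBAH, at 455.4, 827.1 and 743.7 in ASH1 WT and at 574.7, 685 and 734.4 in wild type. The lowest values were those of ΔBAH replicate 1 and ASH1 WT replicate 1, both of run 2. Mad, which carries the signal into the nucleus, stayed between 129.9 and 139.5 CPM in ΔBAH mutAT1, against 126.6 to 145.8 CPM in wild type. It had 95.5, 142.7 and 138.6 CPM in ΔBAH and 105.2, 165.3 and 152.7 CPM in ASH1 WT, again with replicate 1 lowest in both lines. The log2 fold changes of the mean of the lines over wild type were -0.08 (SE 0.20) for tkv and 0.00 (SE 0.16) for Mad, each with an adjusted p of 1. For Mad in ΔBAH over ASH1 WT it was -0.17 (SE 0.20, adjusted p 1).

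Negative regulators act at both ends of the response. Dad, itself induced by the signal, binds the receptor and limits phosphorylation of Mad. It was at 183, 131.9 and 204.8 CPM in ΔBAH mutAT1, at 119.3, 227.7 and 214.1 in ΔBAH, at 120.2, 266.1 and 221.1 in ASH1 WT and at 171, 148.6 and 228.2 in wild type. The 4 libraries of run 2 reached at most 148.6 CPM, and the 6 of run 3 had at least 204.8 CPM. The gene brk, whose product represses Dpp targets and is itself shut off by the signal, was at 110.6, 129.7 and 144.4 CPM in ΔBAH mutAT1, at 125.8, 154.1 and 152.5 in ΔBAH, at 116, 176.9 and 149.9 in ASH1 WT and at 97.9, 134.2 and 135.6 in wild type. Its highest library was ASH1 WT replicate 2 and its lowest wild type replicate 1, and the 2 genotypes overlapped. With genotype alone in the fit, brk had the smallest p of the 8 genes in any comparison with wild type. This was in ASH1 WT over wild type, with a log2 fold change of 0.27 (SE 0.20) and an adjusted p of 1. Of the other tested genes, the one whose pattern over the 12 libraries was most like that of brk was CG5151, with a root mean square difference of 0.0833 between their centred log2 CPM, and vri was also among the closest 5 at 0.0913. The remaining 3 carry identifiers that the reference tables used here do not name.

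The targets bi and salr were the members that varied most among libraries. The T-box gene bi, needed for growth of the central wing, was at 176.2, 83.9 and 235.8 CPM in ΔBAH mutAT1, at 81.2, 231.5 and 246.9 in ΔBAH, at 79.4, 234.3 and 201.1 in ASH1 WT and at 186.9, 117.6 and 245.7 in wild type. Its range over all libraries was 3.11-fold, and 90.6% of tested genes had a lower SD of log2 CPM. The low library of each genotype was the one in run 2. The zinc finger gene salr, which helps to place the second vein, was at 203.3, 152.3 and 201.7 CPM in ΔBAH mutAT1, at 120.1, 243.1 and 223.6 in ΔBAH, at 113, 248 and 202.9 in ASH1 WT and at 237.8, 182.3 and 297.7 in wild type. The wild type library was the highest of its run in each of the 3 runs, although the genotypes overlapped once the runs were pooled. The log2 fold change of the mean of the lines over wild type was -0.07 (SE 0.43, adjusted p 1) for bi and -0.33 (SE 0.26, adjusted p 0.964) for salr.

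**Figure D1:**
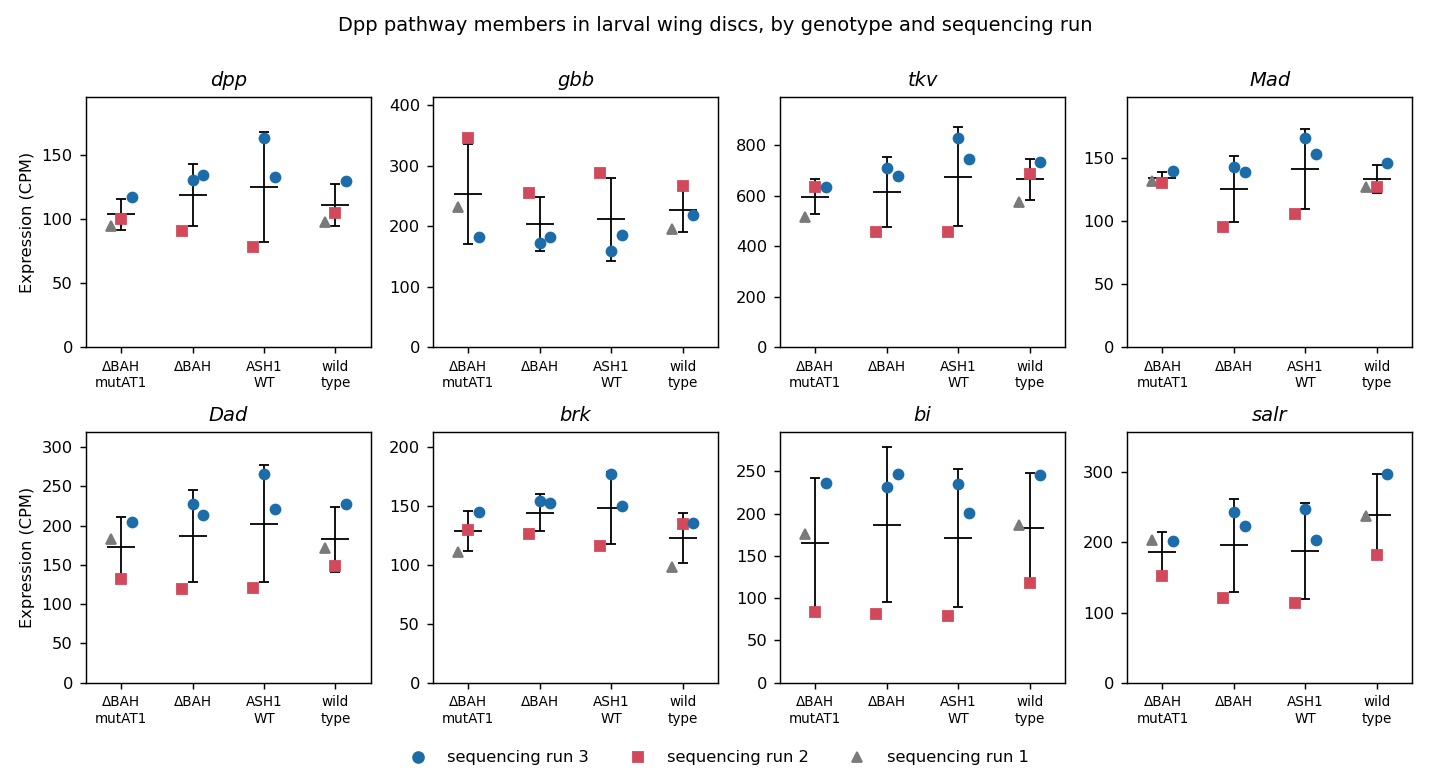
Expression of the 8 genes in CPM (y axis, from 0) by genotype (x axis), with 1 point per library, its shape and colour giving the sequencing run, and black bars for the mean ± SD of the 3 libraries. Libraries of run 2 sit low for bi (79.4 to 117.6 CPM) and high for gbb (254.5 to 345.4 CPM) in every genotype, and for salr the wild type point is the highest of its run.

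The run separated the libraries more than the genotype did. With genotype in the fit, all 8 genes differed between run 3 and run 2 at an adjusted p below 0.05 (edgeR quasi-likelihood test), where 64.2% of all tested genes did, so that most of the transcriptome shared this difference. Of the 8, 7 were higher in run 3 and gbb was lower. Over all tested genes, 2433 were higher and 2924 lower. The median absolute log2 fold change was 0.57 for the 8 genes and 0.50 for all tested genes. The libraries of the 2 runs did not overlap for 7 of the 8 genes, beside 46.4% of all genes, tkv being the exception. This comparison was added after the values had been seen.

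Among the members, bi moved most, with 201.1 to 246.9 CPM in the 6 libraries of run 3 against 79.4 to 117.6 in the 4 of run 2, a fold change of 2.65 (95% interval 2.31 to 3.04, adjusted p 3.55e-07). Run 1 lay between, at 176.2 and 186.9 CPM. Dad was 1.76-fold higher in run 3 (1.53 to 2.01) and salr 1.74-fold higher (1.49 to 2.03), with adjusted p of 1.58e-05 and 4.09e-05. The upstream genes moved less: dpp was 1.44-fold higher (1.22 to 1.70), tkv 1.33-fold (1.11 to 1.60), Mad 1.31-fold (1.15 to 1.5) and brk 1.19-fold (1.05 to 1.36). The ligand gene gbb was at 159.8 to 218.7 CPM in run 3 and 254.5 to 345.4 in run 2, which is a ratio of 0.653 (0.568 to 0.751, adjusted p 0.000123). Without ASH1 WT replicate 1, the adjusted p of tkv was 0.0709 and that of brk 0.144. Without ΔBAH replicate 1 they were 0.0547 and 0.0569.

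Some markers of the disc and of other cells differed between the runs as well. The wing disc markers summed to 1705.0 to 1883.3 CPM in run 3 and 1010.2 to 1413.1 CPM in run 2, with no overlap for vg, sd and ap and overlap for nub and pdm2. The 4 neuronal markers summed to 32.4 to 44.6 CPM in run 3 and 11.1 to 13.6 CPM in run 2. That sum was carried by elav alone, at 29.5 to 43.1 CPM in run 3 and 7.94 to 9.79 in run 2, whereas nSyb, Syt1 and brp were each below 4 CPM and overlapped between the runs. The 3 matched tracheal markers of a list of 4 summed to 745.6 to 1018.9 CPM in run 3 and 1177.8 to 1439.8 CPM in run 2. The chitin deacetylase genes verm and serp carried this sum, and only verm did so without overlap. The tracheal receptor gene btl did not follow it, at 8.83 to 12.9 CPM in run 3 and 8.01 to 10.9 in run 2. The 3 matched larval muscle markers of a list of 4 summed to 25.7 to 34.2 CPM in run 3 and 34.6 to 48.9 in run 2. Of these, up did not overlap, and Act57B and Mlc2 did. The sums of the other marker lists overlapped between the runs. In RNA from whole discs, fewer cells of a kind and less RNA per cell cannot be told apart. Depth, disc preparation and the run itself also cannot be told apart, and the part of any of these in the values of the pathway genes was not tested.

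**Figure D2:**
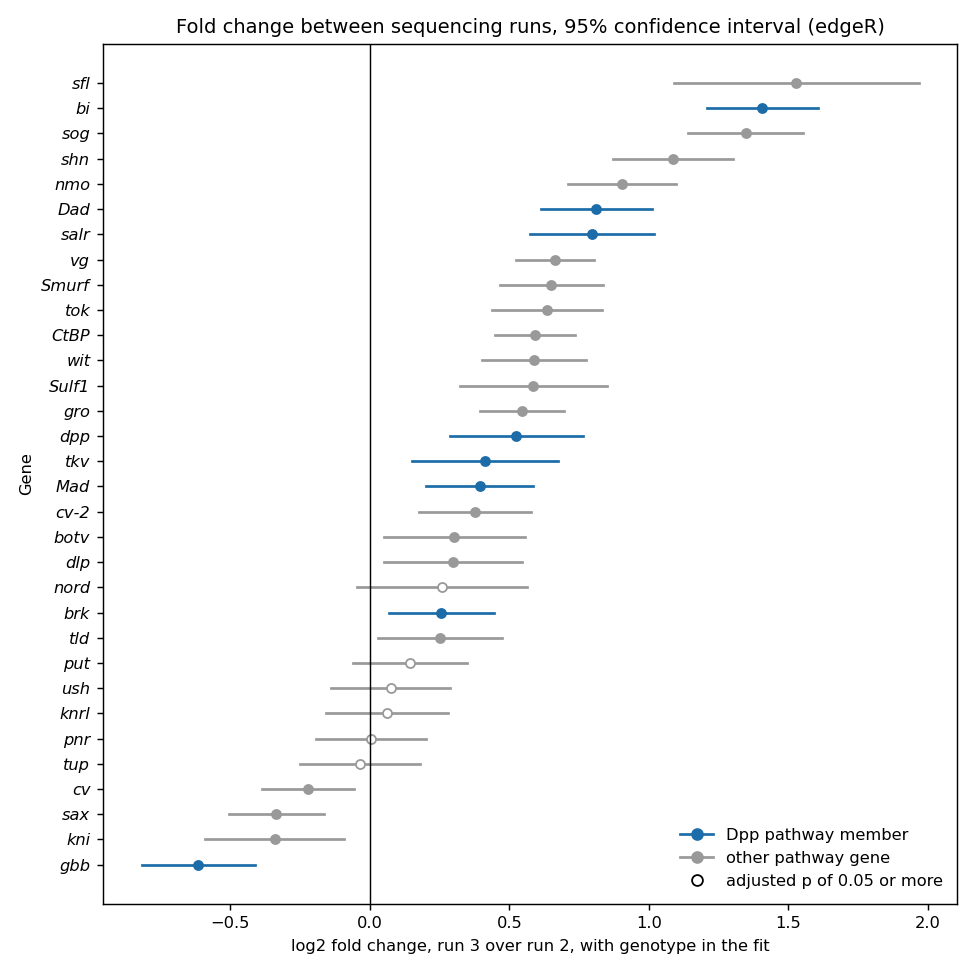
Log2 fold change of run 3 over run 2 with genotype in the fit (x axis) for the 8 members and 24 other pathway genes (y axis, sorted), with 95% confidence intervals; open points have an adjusted p of 0.05 or more. The member bi stands at 1.41 and gbb at -0.61.

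Because the runs weighed so much on these genes, genotypes were also compared with the run as a term in the fit. Under this fit the common coefficient of variation between libraries was 14.4%, in place of 32.0%. Of the members, salr then passed the test. Transcripts of salr were lower in the transgenic lines than in wild type, with a log2 fold change of -0.41 in the mean of the lines (SE 0.10, 0.751-fold, 95% interval 0.643 to 0.877, adjusted p 0.0241). In ASH1 WT over wild type it was -0.48 (SE 0.13, adjusted p 0.0481). In ΔBAH it was -0.42 (SE 0.13, adjusted p 0.0877) and in ΔBAH mutAT1 -0.34 (SE 0.12, adjusted p 0.153), neither of which passed. The lines did not differ from each other in salr beyond error, with 0.08 for ΔBAH mutAT1 over ΔBAH (95% interval -0.21 to 0.37), 0.14 for ΔBAH mutAT1 over ASH1 WT (-0.15 to 0.43) and 0.06 for ΔBAH over ASH1 WT (-0.21 to 0.33). All of these comparisons with wild type share the same 3 wild type libraries.

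The call on salr in the mean of the lines was not a firm one. It held in 6 of the 12 fits that left out 1 library, with an adjusted p of 0.00981 to 0.0469 in those, and it was lost without wild type replicate 1 (0.0684), replicate 2 (0.17) or replicate 3 (0.0902), and without ASH1 WT replicate 3 (0.0529), ΔBAH replicate 1 (0.0602) or ΔBAH mutAT1 replicate 1 (0.059). Wild type replicate 1 is the library with the high fat body markers, and it also had 37.1 CPM of Ubx, the marker of the haltere disc, against 5.54 to 14.0 in the other 11 libraries. The log2 fold change stayed between -0.45 and -0.36 in these fits. With the run in the fit, DESeq2 gave an adjusted p of 0.00435 and limma-voom one of 0.0585. In simulated data a larger share of the calls of DESeq2 than of edgeR or limma-voom fell on unchanged genes. Those data held no run effect and DESeq2 was fitted to them without the run, so they cannot rate DESeq2 with the run in the fit. In ASH1 WT over wild type the call was lost without any of the wild type libraries (0.0959, 0.188 and 0.118 without replicates 1, 2 and 3), without ASH1 WT replicate 1 (0.226) or replicate 3 (0.169), and with limma-voom (0.101). In ΔBAH over wild type salr passed with DESeq2 (0.0451), and it did not pass with limma-voom or in any fit that left out a library of these 2 genotypes (0.0992 to 0.411).

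The share of all genes called was larger with this fit too, at 11.1% for the mean of the lines over wild type, 6.45% for ΔBAH mutAT1, 6.25% for ΔBAH and 7.30% for ASH1 WT, so that 1 of 8 members is close to the share in the background. No member passed between the lines, where 0.180% of genes did for ΔBAH mutAT1 over ΔBAH, 0.0719% for ΔBAH mutAT1 over ASH1 WT and 0.0359% for ΔBAH over ASH1 WT. The gene bi came next to salr, at -0.26 in the mean of the lines (SE 0.09, adjusted p 0.0905). For the other 6 members, the log2 fold change in the mean of the lines lay between -0.21 for tkv (SE 0.12, adjusted p 0.312) and 0.08 for brk (SE 0.09, adjusted p 0.647). The 95% interval for dpp was -0.31 to 0.18, which leaves room for a fall to 0.804-fold but not for a change of 2-fold in either direction.

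**Figure D3:**
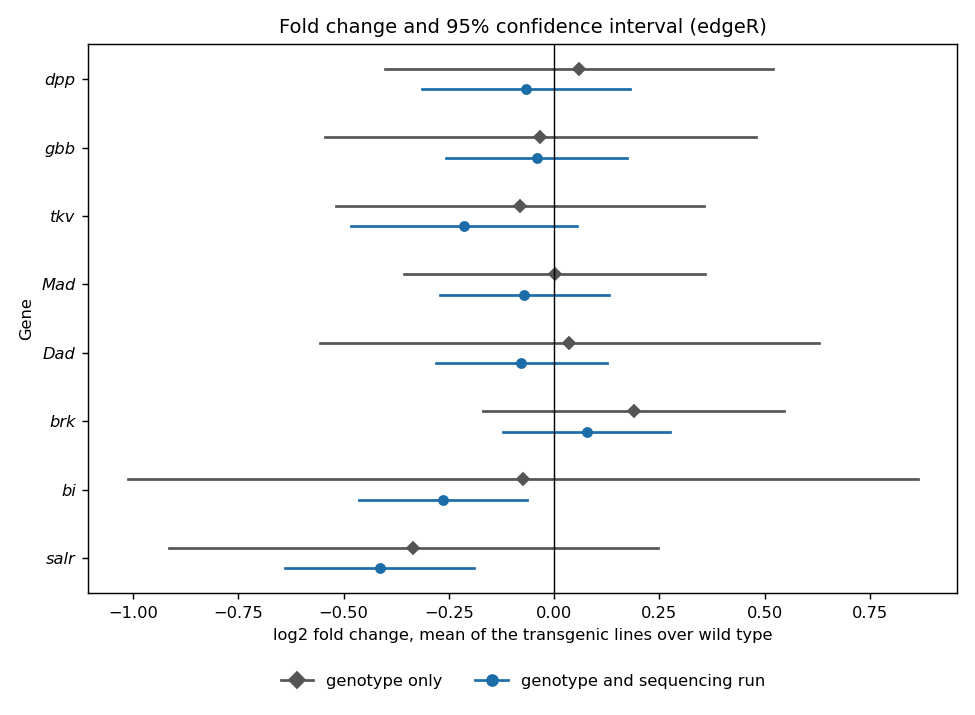
Log2 fold change of the mean of the transgenic lines over wild type (x axis) for the 8 genes (y axis), with 95% confidence intervals, from the fit with genotype only (grey diamonds) and the fit with genotype and sequencing run (blue circles). With the run in the fit the intervals are narrower, and those of salr and bi lie below 0.

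The same pattern can be seen library by library. Set against the wild type library of its own run, salr was lower in all 9 transgenic libraries, at 0.621 to 0.855 times the wild type value. In run 1, ΔBAH mutAT1 had 203.3 CPM against 237.8 in wild type. In run 2, ΔBAH mutAT1, ΔBAH and ASH1 WT had 152.3, 120.1 and 113 CPM against 182.3 in wild type, and in run 3 the 5 transgenic libraries had 201.7 to 248 CPM against 297.7. Genes with all 9 transgenic libraries below the wild type library of their run made up 11.8% of those tested and genes with all 9 above made up 8.18%. A run has only 1 wild type library, so these 9 ratios rest on 3 of them. The wing disc markers moved with salr. Their sum was below that of the wild type library of the same run in 9 of 9 libraries, as were nub, vg and ap, whereas pdm2 was below it in 7 of 9 and sd in 3 of 9. The sums of the markers of adult muscle precursors and of trachea were also below it in 9 of 9. Within these 2 lists, zfh1, stumps and serp were below it in 9 of 9, verm in 8, htl and btl in 7, twi in 6 and Him in 4. The neuronal sum was below it in 8 of 9, and the fat body and larval muscle sums in 6 of 9. The salivary gland sum was below it in 3 of 9, Ubx in 2 of 9 and the hemocyte sum in 1 of 9. The part of these markers in the values of salr was not tested.

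The gene bi was lower in 8 of 9 libraries. Its log2 ratios in run 2 were -0.48, -0.53 and -0.56 for ΔBAH mutAT1, ΔBAH and ASH1 WT, and in run 3 they were -0.29 to 0.01. For Dad and tkv the transgenic library was lower in 7 of 9, for gbb in 6 of 9, for dpp and Mad in 5 of 9 and for brk in 3 of 9. ASH1 WT replicate 1 and ΔBAH replicate 1 were the lowest for tkv, at -0.59 and -0.58, whereas ASH1 WT replicate 2 of run 3 was the highest for dpp, tkv, Mad, Dad and brk. For tkv, Mad, Dad, brk and dpp, the ASH1 WT line therefore had libraries on both sides of wild type.

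**Figure D4:**
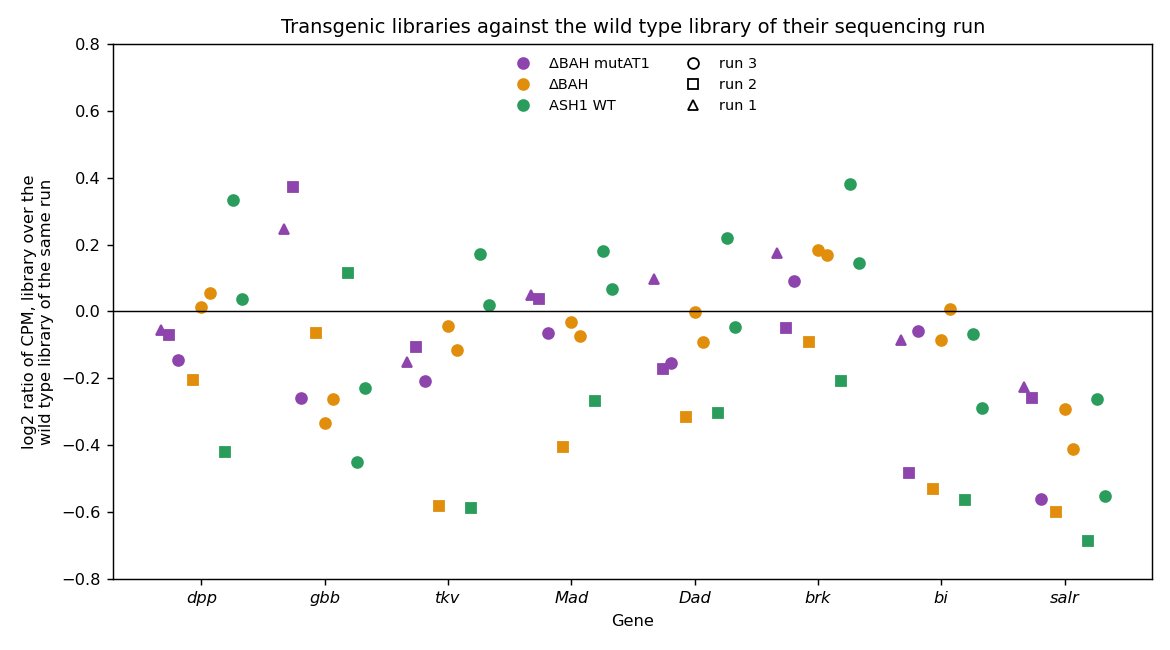
Log2 ratio of CPM in each of the 9 transgenic libraries to the wild type library of the same sequencing run (y axis) for the 8 genes (x axis); colour gives the line and shape the run. For salr all points lie below 0, between -0.69 and -0.23, and for the other genes points lie on both sides of 0.

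The wider pathway was read from a list of 31 further genes, of which 27 matched the table by identifier and 24 were tested. They comprise receptors (sax, put, wit), extracellular modulators such as sog and tld, intracellular regulators such as Smurf and nmo, and targets such as vg and pnr. With genotype alone in the fit, 0 of 24 passed in each of the 7 comparisons, and by unadjusted p below 0.05 between 0 and 2 did. Their median log2 fold change in the mean of the lines over wild type was -0.03. Closest to the threshold in the comparisons with wild type was tld, a protease that cleaves the Dpp antagonist Sog. It was at 66.7, 70.8 and 66.2 CPM in ΔBAH mutAT1, at 57.0, 82.8 and 75.4 in ΔBAH, at 52.3, 65.3 and 72.9 in ASH1 WT and at 43.6, 51.7 and 55.9 in wild type. Both ΔBAH lines lay above wild type without overlap. Over all tested genes, 14.0% did not overlap with wild type in either direction for ΔBAH mutAT1 and 13.6% for ΔBAH. The log2 fold change of tld in the mean of the lines was 0.42 (SE 0.15, adjusted p 0.226), or 0.36 with the run in the fit (SE 0.11, adjusted p 0.055).

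With the run in the fit, 2 of the 24 fell in the mean of the lines, which is no larger a share than the 11.1% of all tested genes called there. Both are named here after their values were seen. The gene nmo, which encodes a kinase that restrains Mad, was at -0.36 (SE 0.09, adjusted p 0.0265). It had 162, 121.7 and 220.6 CPM in ΔBAH mutAT1, 109.4, 193.2 and 206.7 in ΔBAH, 134.2, 283.2 and 208.2 in ASH1 WT, and 221, 143.2 and 293.2 in wild type. In ΔBAH over wild type nmo also passed, at -0.50 (SE 0.11, adjusted p 0.0248). The other was vg, the wing selector gene and a target of the pathway, which is also counted among the wing disc markers. It was at -0.24 (SE 0.07, adjusted p 0.0353), with 246.2, 190.1 and 274.9 CPM in ΔBAH mutAT1, 171.4, 296 and 291.2 in ΔBAH, 175, 290.8 and 274.5 in ASH1 WT, and 271.8, 220.6 and 336.9 in wild type. Both nmo and vg were below the wild type library of their run in 9 of 9 libraries, as were wit, sfl and CtBP, and tld was above it in 9 of 9. Over all tested genes these shares were 11.8% and 8.18%. Leaving out 1 library raised the adjusted p to as much as 0.145 for nmo in the mean of the lines, 0.119 for nmo in ΔBAH and 0.226 for vg, and leaving out any wild type library ended the calls in the mean of the lines for both.

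Between the lines, the genes nearest the threshold were targets of the prospective notum, where Dpp sets the dorsal pattern of the thorax. The GATA factor gene pnr was at 31.9, 36.3 and 37.7 CPM in ΔBAH mutAT1, against 41.2, 48.8 and 41.0 in ΔBAH and 43.8, 48.5 and 43.1 in ASH1 WT. The gene for its cofactor, ush, was at 70.9, 73.4 and 66.0 CPM in ΔBAH mutAT1, against 83.6, 90.8 and 90.9 in ΔBAH and 83.8, 112.4 and 80.7 in ASH1 WT. The LIM homeobox gene tup was at 26.7, 31.4 and 30.0 CPM in ΔBAH mutAT1 and 35.5, 39.9 and 37.8 in ΔBAH. In ASH1 WT, tup was at 30.2, 34.7 and 30.3 CPM, which overlapped ΔBAH mutAT1. For tup it was ΔBAH that lay above ASH1 WT without overlap, where 4.09% of all tested genes did not overlap. ΔBAH mutAT1 was below ΔBAH without overlap for these 3 of the 24 genes, where 4.95% of all tested genes did not overlap. It was below ASH1 WT without overlap for pnr, ush and knrl, where 6.15% of all tested genes did not overlap. The log2 fold changes over ΔBAH were -0.31 for pnr (SE 0.14), -0.33 for ush (SE 0.14) and -0.36 for tup (SE 0.15), each with an adjusted p of 1, so none of them passed. With the run in the edgeR fit, none of the 24 passed in this comparison either (smallest adjusted p 0.869). Wild type had 42.5, 53.0 and 43.6 CPM of pnr, 75.8, 75.3 and 79.1 of ush and 30.9, 38.3 and 28.9 of tup. For ush, ΔBAH and ASH1 WT lay above wild type and ΔBAH mutAT1 below it, each without overlap. For pnr, only ΔBAH mutAT1 lay apart from wild type, below it. Over all tested genes, 13.6%, 13.6% and 14.0% did not overlap with wild type for ΔBAH, ASH1 WT and ΔBAH mutAT1. The 5 markers of adult muscle precursors, which lie beneath the notum, summed to 128.7 to 143.9 CPM in ΔBAH mutAT1, 152.4 to 190.1 in ΔBAH, 145.0 to 201.6 in ASH1 WT and 170.9 to 202.2 in wild type. Of these markers only stumps lay below ΔBAH without overlap, at 40.5 to 54.6 CPM in ΔBAH mutAT1 against 55.2 to 57.6. The genes twi, zfh1, htl and Him overlapped between these lines. The part of these markers in the values of pnr, ush and tup was not tested.

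**Figure D5:**
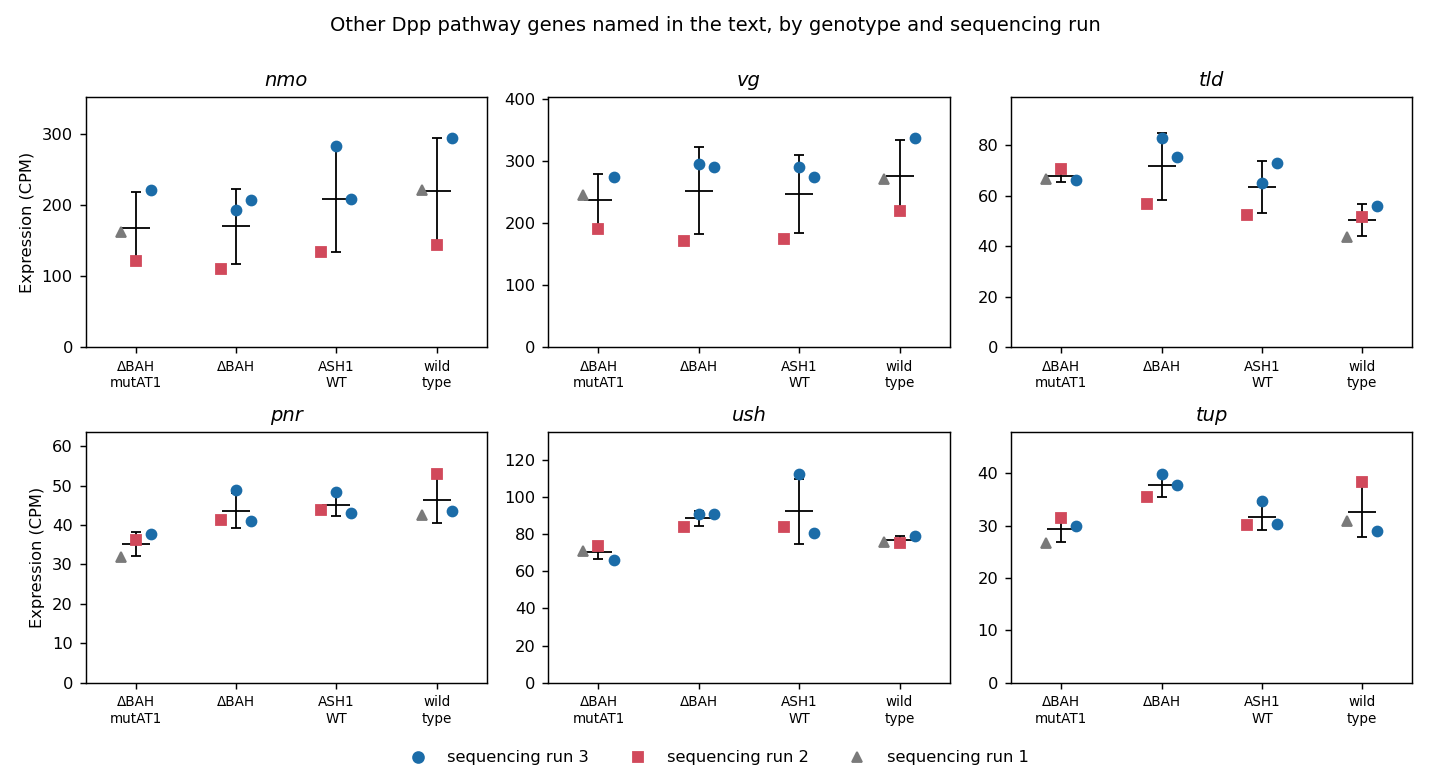
Expression in CPM (y axis, from 0) of 6 other pathway genes by genotype (x axis), with 1 point per library, shape and colour for the sequencing run and black bars for the mean ± SD of the 3 libraries. For pnr, ush and tup the ΔBAH mutAT1 libraries lie below those of ΔBAH, and for nmo and vg the wild type library is the highest of its run.

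Between run 3 and run 2, 18 of the 24 differed, beside 64.2% of all tested genes, and 15 of them were higher in run 3. The genes named here were chosen after their values were seen. The largest fold change was that of sfl, which encodes an enzyme of heparan sulfate synthesis, at 2.89-fold (adjusted p 4.64e-05), with 44.3 to 62.8 CPM in run 3 and 10.9 to 31.0 CPM in run 2. The antagonist gene sog was 2.54-fold higher in run 3 (adjusted p 5.82e-07), shn, which encodes the cofactor that Mad needs to repress brk, 2.12-fold (3.35e-06), and nmo 1.87-fold (5.73e-06). Receptor genes stood on both sides, with the type I receptor gene sax at 0.793-fold (adjusted p 0.00243) and wit, a type II receptor gene, at 1.5-fold (9.76e-05). The notum targets pnr, ush and tup had log2 fold changes of 0.00, 0.07 and -0.03 between the runs and did not pass.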

How the data were processed

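RNA-seq counts of 12 wing disc libraries were analysed, 3 for each of 4 genotypes. The deposited values are whole-number counts of reads per gene without normalization. The authors aligned reads to dm3 with TopHat2 2.0.9 and counted them with HTSeq 0.5.4p3. The strand setting and the treatment of reads with several positions are not given in the sources used here. Members of near-identical families could share reads. Symbols, exon lengths and positions came from BDGP6 and were matched by identifier. ap and btl took theirs from symbols in the study's supplement.

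The members and lists were chosen with earlier results of these data known. All members are named. Of the other pathway genes, those past the threshold in one of the 7 genotype comparisons are named (at most 5 each), otherwise the 2 with the smallest p may be. Genes named outside this rule, from the comparison of the runs or the fit with the run, are marked. The genes closest to a member are those with the smallest root mean square difference of log2 CPM centred on the gene's mean.

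Genes were kept by filterByExpr (minimum count 10), libraries were scaled by TMM, and a model with genotype as the only factor was fitted to the 12 libraries together with edgeR 4.0.16 (quasi-likelihood test, R 4.3.3). Adjusted p are Benjamini-Hochberg values over all tested genes, called below 0.05. Fold changes are the first-named group over the second. CPM are TMM-scaled, RPKM are CPM per kilobase of merged exons, and ratios use an offset of 0.5 CPM. Depth was 15083960 to 39180697 counts, and precision was set by the spread between libraries. P-values measure the spread between libraries of independent RNA preparations. Without the run in the fit this spread also holds the difference between sequencing runs, which the genotypes share unevenly. The procedure was tested on simulated data without a run effect, where DESeq2 made more false calls than edgeR or limma-voom.

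Alternatives were RLE size factors, DESeq2 1.42.0, limma-voom 3.58.1 on all genes, no filter, replicate number as a block, a term for the sequencing run, fewer libraries in the fit, and leaving out each library. Combinations with the run were added after seeing the data. Deviations from the genotype means of libraries with the same replicate number correlated at 0.487 to 0.813 between ΔBAH and ASH1 WT and at 0.423 to 0.486 between ΔBAH mutAT1 and wild type. In both of these pairs of groups the same number also means the same run, so number and run cannot be told apart there. For the other pairs of groups the correlations ranged from -0.454 to 0.499. In those pairs they were 0.428 to 0.499 for replicate 3, which was in run 3 in every genotype. Replicate libraries all differed by more than sampling noise.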

Additional observations from a re-analysis of the deposited data

How the results depend on the processing

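The count of members called was 0 of 8 in the 7 genotype comparisons under RLE size factors, DESeq2, limma-voom on all genes, no filter, the replicate block, fewer libraries in the fit and leaving out each library. The replicate block changed no call of a member. The exception was the run as a covariate, which gave 1 call (salr) for ASH1 WT over wild type and 1 for the mean of the lines over wild type, and 0 with the run in the fit and without wild type replicate 1. Between run 3 and run 2, 6 to 8 of 8 members were called when a library was left out.

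Directions near 0 were not stable. In the mean of the lines over wild type, the log2 fold change with the run as a covariate was -0.0674 for dpp, -0.0705 for Mad and -0.0776 for Dad, each above 0 without it, and for Mad it was -0.0110 under limma-voom on all genes and -0.0115 with the replicate block. For bi in ΔBAH over wild type it was -0.24 with the run as a covariate, -0.0572 under limma-voom on all genes and -0.0569 with the replicate block, against 0.02 without these. Leaving out 1 library gave, in the mean of the lines, -0.0227 to 0.18 for dpp, -0.13 to 0.10 for gbb, -0.0429 to 0.0699 for Mad, -0.0932 to 0.23 for Dad and -0.31 to 0.19 for bi. For bi it gave -0.50 to 0.17 in ΔBAH mutAT1, -0.23 to 0.41 in ΔBAH and -0.39 to 0.25 in ASH1 WT over wild type, and for Mad -0.34 to 0.0026 in ΔBAH over ASH1 WT. With the run in the fit, leaving out 1 library gave -0.16 to 0.0262 for dpp, -0.14 to 0.13 for gbb, -0.15 to 0.0108 for Mad, -0.14 to 0.0314 for Dad and -0.0075 to 0.19 for brk. The cause was not tested. The sign for salr was negative in all 18 alternatives for the mean of the lines, from -0.50 to -0.15.

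Over all tested genes, DESeq2 called 354, 376 and 350 for ΔBAH mutAT1, ΔBAH and ASH1 WT over wild type and 518 for the mean of the lines, against 181, 161, 160 and 263 by edgeR. DESeq2 had the larger share of false calls in simulated data. Those data held no run effect, so they cannot show which of the calls here are false. The run as a covariate gave 538, 522, 609 and 927. For ΔBAH mutAT1 over ΔBAH, edgeR called 4 genes, the replicate block 2, DESeq2 23 and the run as a covariate 15. For ΔBAH mutAT1 over ASH1 WT, edgeR called 4 and DESeq2 11. For ΔBAH over ASH1 WT, where edgeR called 0, no filter gave 2 and the run as a covariate 3. With 3 libraries per genotype spread unevenly over the runs, changes of the size seen for bi, whose 95% interval was -1.01 to 0.86 in the mean of the lines, could not be resolved with genotype alone in the fit.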
